A study of Mus musculus with 4 samples.

Results

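The genes described here are the eosinophil granule protein genes Prg2, Prg3, Epx and Ear2 together with Siglecf, an eosinophil surface receptor gene, in cultured T cells of KO and wild-type (WT) mice. These 5 genes were chosen from earlier results of the same data, on the KO minus WT difference of log2(signal + 16) and on the difference between the 2 KO arrays. Both values are therefore given for them as descriptions, without a test. A gene was measured where the annotation of the array platform names it alone for a probe set (the probes that together read 1 transcript), and this held for 4 of the 5 genes, among 18193 genes measured in all. Prg2, Prg3, Epx and Siglecf had 1 probe set each. No probe set was named for Ear2 in the annotation used, so Ear2 was not analysed here.

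The KO group comprised 2 arrays of KO cells (KO arrays 1 and 2) and the WT group 2 arrays of wild-type cells (WT arrays 1 and 2), numbered within its group by the labels. In both groups naive T cells of mouse spleen had been kept for 3 days under conditions that induce regulatory T cells (Treg cells), CD4 T cells that restrain immune responses. The deleted gene, the strain, the age of the mice and the composition of the culture medium are not given in the labels used here. The labels also do not say whether the arrays stem from separate cultures or animals, so p-values measure the spread between these arrays, which may be technical.

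Eosinophils are granulocytes of type 2 immunity that mature in the bone marrow under interleukin-5. Their granules store very basic, toxic proteins: a crystalline core of major basic protein, encoded by Prg2, and a matrix of eosinophil peroxidase, encoded by Epx, and of ribonucleases of the Ear family. Prg3 encodes a homolog of major basic protein. Siglecf encodes a lectin of the eosinophil surface that binds sialylated glycans and is used to recognise mouse eosinophils in tissue. In the mouse, factors of the GATA family drive the eosinophil lineage. T cells are not known for these granule proteins. In RNA of a whole culture, fewer cells of a type and less RNA per cell cannot be told apart.

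All values are MAS5 signals on a linear scale unless a log2 scale is named, and a mean is given ± SD over 2 arrays per group. Signals were scaled to the same trimmed mean on each array, and over the 27022 probe sets above a filter on dim signals the log2 values correlated across probe sets at 0.977 between the KO arrays and at 0.979 between the WT arrays. KO minus WT differences, tested with limma and Benjamini-Hochberg adjustment over these probe sets, had a median of -0.079 on the log2 scale. At an adjusted p below 0.05, 17.1% of them were called, 7.89% higher and 9.17% lower in KO cells. T cell genes were bright on all arrays, with Cd3d at 25008 and 21778 on the KO arrays and at 18632 and 17974 on the WT arrays.

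Prg2, the major basic protein gene, had a signal of 3675 on KO array 1 and 1561 on KO array 2, against 1.16 and 9.03 on WT arrays 1 and 2. The groups lay far apart, and the lower KO signal was 173 times the higher WT signal. The means were 2618 ± 1500 in KO cells and 5.092 ± 5.56 in WT cells (SD, n = 2 each). On the log2(signal + 16) scale KO cells were higher by 6.86, or 116-fold, and only 3 of the 27022 tested probe sets had a larger KO minus WT difference. Within the arrays, the Prg2 probe set stood at percentile 94.9 and 89.2 of all probe sets in KO cells and at percentile 1.17 and 16.9 in WT cells, so its WT signals lie among the dimmest of the table and the size of the ratio depends on them.

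Epx, the eosinophil peroxidase gene, had signals of 1733 and 454.0 on KO arrays 1 and 2, against 16.3 and 36.8 on WT arrays 1 and 2. Both KO signals were above both WT signals, the lower by 12.3 times the higher WT signal, and the 2 KO arrays stood apart from each other. The means were 1093 ± 904 in KO cells and 26.51 ± 14.5 in WT cells, a difference of 4.46 on the log2(signal + 16) scale or 22.0-fold. Of the tested probe sets 47, or 0.174%, had a larger difference.

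Prg3, the homolog of major basic protein, was dimmer, with 138 and 51.2 on KO arrays 1 and 2, against 8.62 and 4.76 on WT arrays 1 and 2. The lower KO signal was 5.94 times the higher WT signal. The means were 94.55 ± 61.3 in KO cells and 6.688 ± 2.73 in WT cells, which is 4.50-fold on the log2(signal + 16) scale and 14.1-fold as a plain ratio of means. Its mean of 5.58 on the log2(signal + 16) scale fell just short of the filter at 5.619, so it was not among the tested probe sets.

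Siglecf, the surface lectin gene, stayed dim everywhere, with 36.1 and 31.5 on KO arrays 1 and 2, against 0.644 and 27.8 on WT arrays 1 and 2. WT array 2 nearly reached the KO arrays, whose lower signal was 1.13 times that of WT array 2. KO cells were higher by 0.88 on the log2(signal + 16) scale, and by 0.18 once WT array 1 was left out. The probe set stood at percentile 39.6 and 36.4 in KO cells and at percentile 0.233 and 32.6 in WT cells and did not pass the filter, so no level of Siglecf well above that of dim probe sets was seen on any array.

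**Figure D1:**
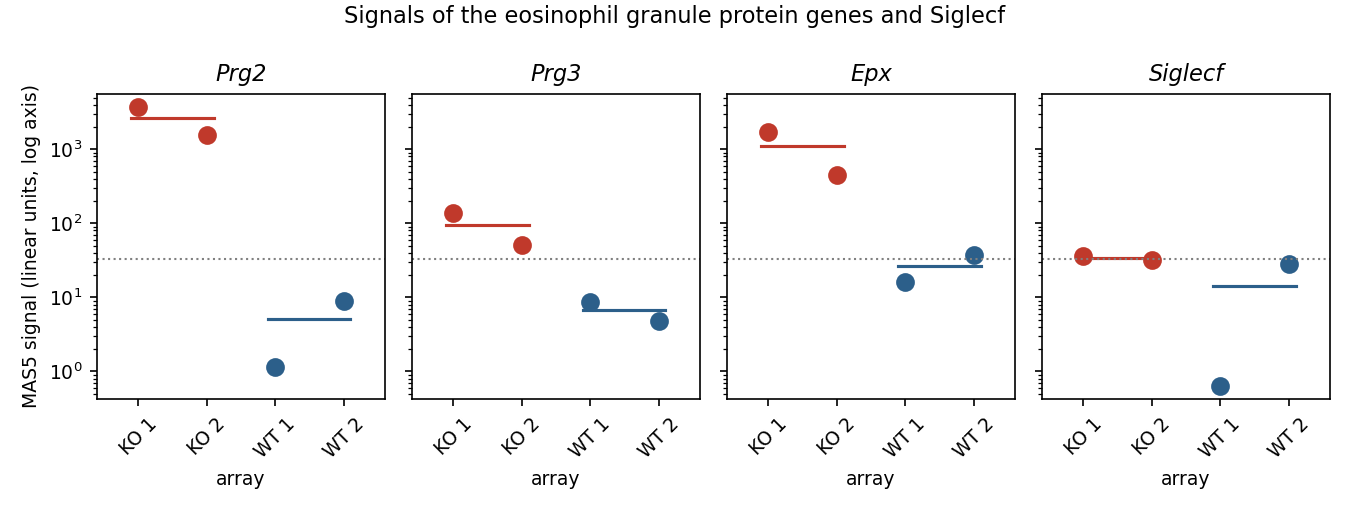
MAS5 signal (linear units on a log axis) of the 4 measured genes on KO arrays 1 and 2 (red) and WT arrays 1 and 2 (blue), with points for arrays and bars for group means; the dotted line at 33.2 is the filter, which was set on the mean of log2(signal + 16) over the 4 arrays. Prg2 and Epx lie between 454.0 and 3675 on the KO arrays, while Siglecf stays at or below 36.1.

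In all 4 measured genes both KO arrays lay above both WT arrays, which was so for 25.1% of the tested probe sets, while 35.1% of them had both KO arrays below both WT arrays. Together with a difference of at least 2-fold on the log2(signal + 16) scale it held for Prg2, Prg3 and Epx, and for 5.5% of the tested probe sets. Nothing is read from these counts, because the genes were chosen on this contrast. Of the 4 genes, Prg2 and Epx passed the filter, and they did so through their KO signals. The sizes depend on the value added before taking logs, since the WT signals are small: with 1 in place of 16 the log2 difference was 9.01 for Prg2, 5.12 for Epx, 3.52 for Prg3 and 2.33 for Siglecf, and with 64 it was 5.16, 3.42, 1.11 and 0.34 in the same order of genes. Leaving out 1 array at a time gave 6.25 (without KO array 1) to 7.48 (without KO array 2) for Prg2, 3.51 to 5.41 for Epx and 1.57 to 2.77 for Prg3 with the same arrays left out. For Siglecf the range was 0.18 (without WT array 1) to 1.58 (without WT array 2).

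**Figure D2:**
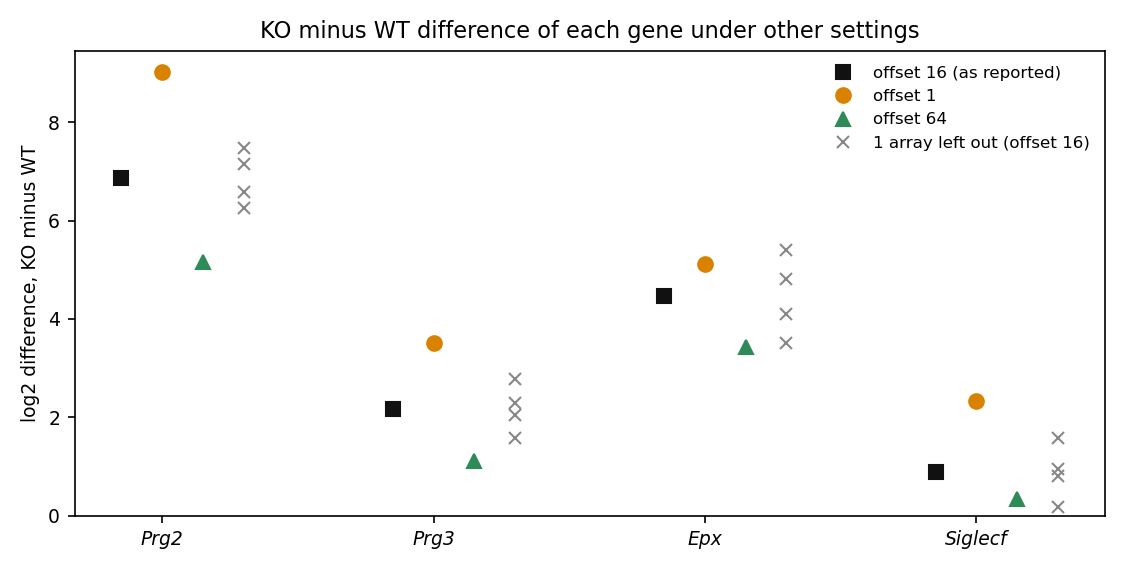
KO minus WT difference on the log2 scale for the 4 genes, with 16, 1 or 64 added to the signal (squares, circles and triangles) and with 1 array left out at a time (crosses). All values are above 0, and those of Siglecf run from 0.18 to 2.33.

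The 3 granule protein genes were also unequal between the KO arrays, and in the same direction. All 4 measured genes had more signal on KO array 1 than on KO array 2, as did 48.2% of the tested probe sets. The signal of KO array 1 was 2.36 times that of KO array 2 for Prg2, 2.69 times for Prg3 and 3.82 times for Epx, but 1.15 times for Siglecf. On the log2(signal + 16) scale these differences were 1.23, 1.20, 1.90 and 0.13 in that order. The tested probe sets had a median KO array 1 minus KO array 2 difference of -0.015 with an SD of 0.483 across probe sets, and in 2.14% of them KO array 1 exceeded KO array 2 by 2-fold or more. Prg3 did not pass the filter, and other dim genes below it differed as much in either direction, with 1.53 for Siglece and -1.27 for Tpsg1. The difference of Prg3 is therefore not unusual among dim genes. The WT arrays did not share the order of the KO arrays: WT array 2 was the higher one for Prg2, Epx and Siglecf and the lower one for Prg3. These WT signals were dim, from 0.644 to 36.8, and dim MAS5 signals vary strongly between arrays, so nothing is read from their order. With 1 array on each side the difference between the KO arrays has no replicate check, and the genes were also chosen on it.

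Prg2 and Prg3 are neighbours on mouse chromosome 2 in the RefSeq gene table of GRCm38.p6, with no protein-coding gene between them. Epx lies on chromosome 11 near the peroxidase genes Lpo and Mpo, with 1 protein-coding gene between it and Lpo and 2 between it and Mpo, and Siglecf lies on chromosome 7. Their neighbours were taken as the 3 nearest genes with a probe set on each side of the Prg2 and Prg3 pair, of Epx and of Siglecf, and were picked for position after the values of the 5 genes were known. Of these 18 neighbours 12 were tested, and 1 rose and 1 fell in KO cells, a share near the 17.1% called over all tested probe sets, so nothing is read from it. The first was Nkg7, a granule membrane gene of cytotoxic lymphocytes near Siglecf (log2 difference 2.97 ± 0.20 SE, limma, adjusted p = 6.24e-05), and the second Vezf1 near Epx (-0.43 ± 0.11). Vezf1 lost its call without the intensity trend, with each array centred on its median, and without KO array 2, WT array 1 or WT array 2. Of the 4 tested genes around Prg2 and Prg3 none was called. Slc43a3, on the Prg2 side, had 606 and 581 on the KO arrays and 743 and 605 on the WT arrays. Myeloperoxidase, the neutrophil relative of eosinophil peroxidase encoded by Mpo, had 28.4 and 45.6 on the KO arrays and 18.5 and 19.4 on the WT arrays, and lactoperoxidase (Lpo) had 3.88 and 5.73 on the KO arrays and 11.2 and 5.92 on the WT arrays. Neither passed the filter.

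The sequences before the starts of Prg3 and Epx are shown because both KO arrays were above both WT arrays for both genes, and a stretch of Siglecf because its window holds a pair of GATA motifs while its signal stayed dim. They are RefSeq sequences of GRCm38.p6, written 5′ to 3′ on the strand of the gene, with matches to the GATA motif in capitals.
Prg3, 250 bases before the start (chr2:84987965-84988214, plus strand): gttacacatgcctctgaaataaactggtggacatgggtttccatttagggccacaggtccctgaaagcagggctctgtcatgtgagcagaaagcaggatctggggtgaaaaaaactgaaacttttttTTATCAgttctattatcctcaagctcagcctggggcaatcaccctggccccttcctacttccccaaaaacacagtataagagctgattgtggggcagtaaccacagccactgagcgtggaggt
Epx, 250 bases before the start (chr11:87875537-87875786, minus strand): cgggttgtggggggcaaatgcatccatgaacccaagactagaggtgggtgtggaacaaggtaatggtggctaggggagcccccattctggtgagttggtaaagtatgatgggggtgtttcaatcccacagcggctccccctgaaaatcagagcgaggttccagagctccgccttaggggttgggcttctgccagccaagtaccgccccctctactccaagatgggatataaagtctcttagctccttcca
Siglecf, 30 bases across the start (chr7:43351333-43351362, plus strand): tccagggcctTGATAGtgcTGATAAcctgt
The motif was searched on both strands as TGATAA or TGATAG, and as the same words beginning with A in place of T, over the window from 250 bases before to 50 bases after the start, whose first transcribed base is position 1. The Prg3 window held 1 match, TGATAA on the opposite strand beginning at position -123 from the start. The Siglecf window held 2 matches on its own strand, TGATAG at position 3 and TGATAA at position 12 after the start. The Epx and Ear2 windows held none, and no Prg2 window was available in the table used. Among all 32851 RefSeq windows of this length 29.8% held at least 1 match and 7.77% held 2 or more. The C/EBP motif TTGCNNAA, present in 10.8% of the windows, was found once in the Ear2 window and not in the other 3. The PU.1 motif GAGGAAGT, present in 3.2%, was found in none of the 4. No window held matches to more than 1 of the 3 motifs, and a match is a string of letters here, not a binding site.

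Ear genes other than Ear2, whose products are the mouse counterparts of human eosinophil cationic protein and eosinophil-derived neurotoxin, were dim. Ear3 had signals of 95.6 and 34.3 on KO arrays 1 and 2, against 1.01 and 0.821 on WT arrays 1 and 2. Thus both KO arrays exceeded both WT arrays, and KO array 1 had 2.79 times the signal of KO array 2, in the same direction as for the granule protein genes. Dim relatives had larger such ratios, at 6.02 for Rnase1, 8.59 for Ang and 10.1 for Ang2, although their KO arrays did not both exceed both WT arrays. Rnase6, whose KO arrays did, had a ratio of 0.883. The Ear3 ratio is therefore not unusual among these dim genes. The Ear3 probe set is marked as cross-hybridising, so RNA of close relatives can contribute to it. Rnase2b had 41.2 and 18.9 on the KO arrays and 8.77 and 4.20 on the WT arrays, while Rnase2a, another eosinophil-type ribonuclease gene, had 1.57 and 1.96 on the KO arrays and 1.96 and 10.4 on the WT arrays. Of 17 listed genes of this ribonuclease family 8 had a probe set and 7 of these were below the filter. The one tested, Rnase4, was at a log2 difference of 0.09 ± 0.24 SE (limma, adjusted p = 0.834).

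Cytokine genes listed as supporting eosinophils, directly or through other cells, were mostly higher in KO cells. Il5, the main growth and survival factor of eosinophils, had 343 and 211 on KO arrays 1 and 2, against 89.8 and 138 on WT arrays 1 and 2. It rose 2.23-fold on the log2(signal + 16) scale (log2 difference 1.16 ± 0.31 SE, limma, adjusted p = 0.0354). Il13, which induces eosinophil-attracting chemokines in tissue, had 830 and 307 on the KO arrays and 62.1 and 179 on the WT arrays and rose 4.24-fold (adjusted p = 0.0258). Il4, the lead cytokine of type 2 helper cells, had 480 and 190 on the KO arrays, against 28.8 and 29.7 on the WT arrays, and rose 7.08-fold (adjusted p = 0.00265). For these 3 genes KO array 1 was the higher KO array, at 1.62, 2.70 and 2.52 times KO array 2. That order held for 4 of the 6 cytokine genes, beside 48.2% of the tested probe sets, so nothing is read from it.

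Il3 and Il9 ran the other way between the KO arrays. Il3, which shares its receptor chain with interleukin-5, had 695 and 1103 on KO arrays 1 and 2, against 384 and 456 on the WT arrays, and rose 2.05-fold (limma, adjusted p = 0.016). Il9, a mast cell growth factor, had 11992 and 15872 on the KO arrays, against 730 and 1096 on the WT arrays, and rose 15.2-fold (limma, adjusted p = 1.54e-05). Csf2, the gene of the growth factor GM-CSF, had a log2 difference of -0.45 ± 0.15 SE, which missed the threshold (limma, adjusted p = 0.0767). In all, 5 of 6 cytokine genes rose and none fell, with a median log2 difference of 1.62 beside -0.079 over all tested probe sets. Fitted without the intensity trend 1 of the 5 calls was kept, that of Il9. Il5 and Il13 also lost theirs without KO array 1 (adjusted p = 0.158 and 0.09, limma), without WT array 1 and with no filter, and Il3 lost its call without KO array 2 or WT array 1. The folds of Il4 and Il13 moved by over 1.5 times with the KO array left out, to log2 differences of 2.19 and 1.39 without KO array 1 and of 3.46 and 2.78 without KO array 2, and that of Il13 to 1.42 without WT array 1 and 2.74 without WT array 2.

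Among eosinophil receptors, several that are shared with other myeloid cells rose, and the interleukin-5 and eotaxin receptor genes were dim. Il5ra, the interleukin-5 receptor alpha chain gene, had 22.4 and 16.1 on the KO arrays and 4.79 and 1.48 on the WT arrays. Ccr3, the receptor for eotaxin chemokines, had 2.69 and 2.47 on the KO arrays and 4.04 and 13.7 on the WT arrays, and did not separate the groups. Neither passed the filter. Csf2rb, the signalling chain shared by the receptors of interleukin-3, interleukin-5 and GM-CSF, had 2895 and 1635 on the KO arrays, against 54.9 and 283 on the WT arrays. It rose 15.0-fold (log2 difference 3.91 ± 0.57 SE, limma, adjusted p = 0.00246), and Csf2rb2, the mouse paralog that serves interleukin-3 alone, rose 11.1-fold (adjusted p = 0.000681). The 2 genes are close relatives, so their probe sets may share signal. Csf2ra, the GM-CSF receptor alpha chain gene, was at 0.44 ± 0.30 and did not pass.

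Fc receptor and adhesion genes completed this list. Fcer1g, the signalling gamma chain of Fc receptors, rose 19.4-fold (limma, adjusted p = 0.000597) and Fcgr3, an IgG receptor gene, 11.2-fold (adjusted p = 0.00025). Il3ra rose 1.93-fold (adjusted p = 0.0223), and Adgre1, which encodes the F4/80 antigen of macrophages and eosinophils, 3.06-fold (adjusted p = 0.00407). Itga4, the alpha-4 integrin gene of lymphocytes and eosinophils, fell, with 400 and 374 on the KO arrays against 952 and 1034 on the WT arrays (2.50-fold higher in WT cells). Of its other 2 tested probe sets, 1 also fell (-1.15) and the dimmer was at -0.06 and not called. Of 18 measured receptor and surface genes 12 were tested, of which 6 rose, 1 fell and 5 did not pass, with a median log2 difference of 1.23. Without the intensity trend Csf2rb, Adgre1 and Il3ra lost their calls, and Il3ra also without KO array 1 or WT array 1. WT array 1 was the dimmer WT array for Csf2rb, Csf2rb2 and Fcer1g, and their log2 differences were 2.87, 2.83 and 3.49 without it and 4.95, 4.13 and 5.06 without WT array 2.

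Transcription factors of the eosinophil lineage moved in both directions. Gata2, a factor of progenitors, mast cells and basophils, had 708 and 564 on KO arrays 1 and 2, against 97.3 and 118 on WT arrays 1 and 2, and rose 5.27-fold (log2 difference 2.40 ± 0.22 SE, limma, adjusted p = 0.000243). Gata1, whose enhancer is needed for eosinophils in the mouse, had 429 and 404 on the KO arrays, against 1101 and 871 on the WT arrays. It fell by 1.20 on the log2 scale (adjusted p = 0.00202). Zfpm1, which encodes FOG-1, a GATA partner known in the chicken to repress eosinophil differentiation, fell by 1.07 (adjusted p = 0.00149), at 488 and 482 on the KO arrays against 1051 and 1028 on the WT arrays. A dimmer probe set of Zfpm1 was at -0.76 ± 0.52 and was not called.

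These calls of Gata1, Gata2 and Zfpm1 held in each alternative in which their probe sets were tested. Gata1, Gata2 and Zfpm1 hardly differed between the KO arrays, with signals of KO array 1 at 1.06, 1.26 and 1.01 times those of KO array 2, unlike Prg2, Prg3 and Epx. Cebpb, a factor of the myeloid C/EBP family, rose 1.90-fold and the inhibitor genes Id1 and Id2 rose 1.91-fold and 3.26-fold, while Ikzf2 fell by 0.73 on the log2 scale. Xbp1, which eosinophil precursors need, did not pass at 0.02 ± 0.08, nor did Spi1, the PU.1 gene (-0.60 ± 0.37), Irf8 or Trib1 (-1.27 ± 0.37, limma, adjusted p = 0.0506). Trib1 was called lower in 4 alternatives, namely without KO array 1 (adjusted p = 0.021), with the replicate block (0.028), with 64 added (0.0415) and without cross-hybridising probe sets (0.0434). Cebpa was below the filter. Thus 4 of 11 tested factors rose and 3 fell, with a median log2 difference of 0.02. Without the intensity trend Cebpb, Id1 and Ikzf2 lost their calls, and Ikzf2 also without WT array 2.

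**Figure D3:**
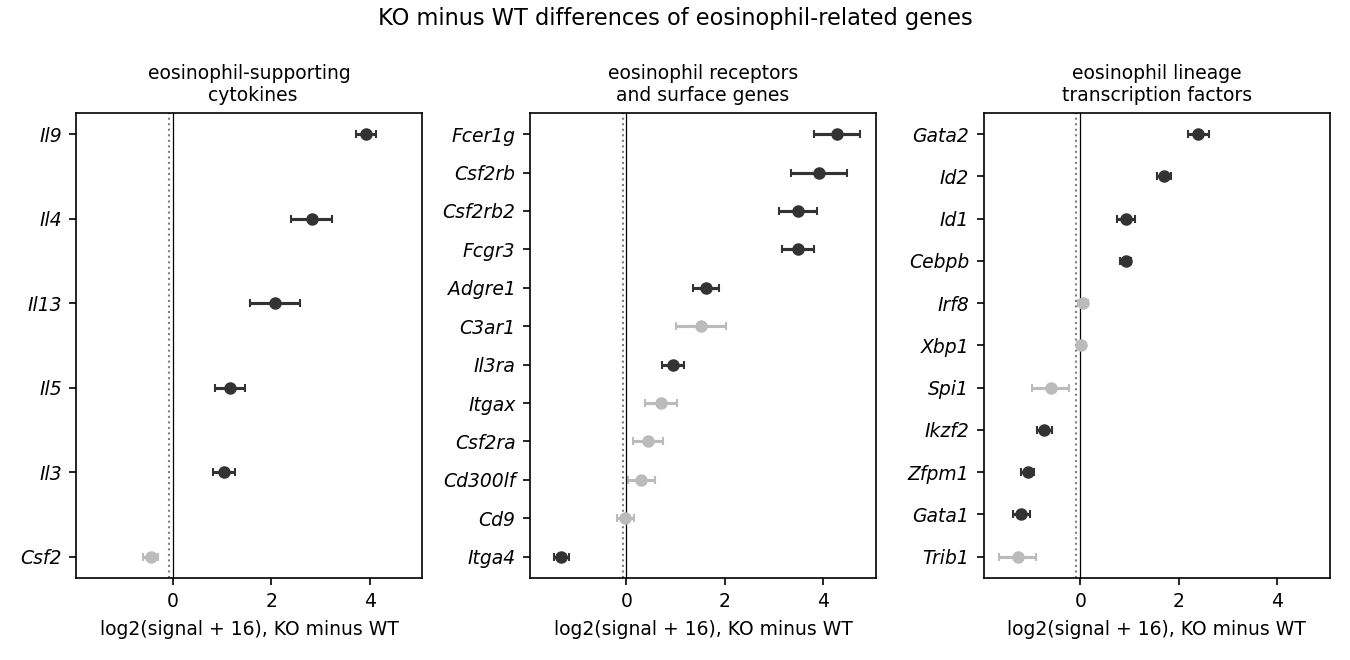
KO minus WT difference of log2(signal + 16) (points, with SE bars) for the tested genes of 3 lists, black where called at an adjusted p below 0.05 and grey otherwise; the dotted line is the median of all tested probe sets, -0.079. Of the cytokines 5 of 6 rose, of the receptor and surface genes 6 of 12, and of the lineage factors 4 of 11 rose and 3 fell.

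Enzymes and mediators of granulocytes rose in part. Alox5ap and Alox5, which start leukotriene synthesis, rose 7.25-fold and 5.55-fold (limma, adjusted p = 0.000105 and 0.0019), and Ctsg, a granule protease gene of neutrophils and mast cells, 46.2-fold (adjusted p = 6.54e-05). The leukotriene C4 synthase gene Ltc4s, which eosinophils and mast cells use, had 30.9 and 8.12 on the KO arrays and 26.2 and 8.04 on the WT arrays and was below the filter, as was Alox15. Of 8 tested genes 4 rose and none fell, the other being Ncf4, an oxidase subunit gene at 0.36 ± 0.10 that lost its call with no filter, without the trend and without KO array 2 or either WT array. Of the eosinophil-attracting chemokines, the eotaxin genes were dim and below the filter. Ccl11 averaged 10.99 ± 4.05 in KO cells and 3.563 ± 0.489 in WT cells, and Ccl24 averaged 17.15 ± 4.87 in KO cells and 8.942 ± 0.267 in WT cells (SD, n = 2 each). Ccl3 rose 20.4-fold and Ccl5 10.4-fold (limma, adjusted p = 3.54e-05 and 0.00149), and Ccl5 lost its call without the intensity trend. The log2 difference of Ccl5 ran from 2.78 without KO array 1 or WT array 1 to 3.98 without KO array 2.

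Markers of other granule-bearing cells moved with the granule protein genes, and their part in the values of Prg2, Prg3 and Epx was not tested. Many of these myeloid markers, such as Cpa3 (22.3 and 21.4 on the WT arrays), were dim in WT cells and passed the filter through their KO signals. Such genes could hardly be called lower, so nothing is read from the lack of falls or from the counts. Over all tested probe sets 7.89% were called higher and 9.17% lower. Of 15 tested mast cell and basophil markers 12 rose and none fell, with a median log2 difference of 4.27, and the summed signal of the 17 measured ones was 57206 to 74830 on the KO arrays against 14389 to 17283 on the WT arrays. Srgn, the serglycin gene, which T cells also express, made up 92.8% and 90.9% of the sums on WT arrays 1 and 2, and without it the other 16 summed to 48234 and 33386 on KO arrays 1 and 2, against 1041 and 1574 on WT arrays 1 and 2. Fcer1a, the IgE receptor alpha chain gene, had 2260 and 1553 on the KO arrays, against 29.4 and 30.3 on the WT arrays, and rose 41.2-fold (limma, adjusted p = 7.93e-06), and Cpa3, mast cell carboxypeptidase, rose 68.3-fold. Kit, the mast cell growth factor receptor gene, did not pass, with 902 and 768 on the KO arrays and 616 and 713 on the WT arrays. Of 11 tested neutrophil markers 6 rose (3 without the intensity trend, and 3 with the lowest 60% of probe sets filtered out) and none fell, with a summed signal over the 13 measured ones of 2924 to 5066 on the KO arrays against 320 to 550 on the WT arrays. Ngp rose by 4.22 ± 0.41 and S100a8 by 4.16 ± 0.30 (log2, limma, adjusted p = 0.000348 and 7.97e-05), while Mpo was below the filter and Elane did not pass. The log2 difference of Ngp was 3.57 without KO array 1 and 4.87 without KO array 2. Of 6 tested monocyte and macrophage markers 4 rose (2 without KO array 1, without the intensity trend, or with the lowest 60% filtered out) and none fell, with a summed signal over the 13 measured ones of 1255 to 1764 on the KO arrays against 499 to 606 on the WT arrays, while C1qa and C1qc were at or below 5.72 on all arrays and C1qb had 57.8 and 18.3 on the KO arrays and 53.0 and 15.8 on the WT arrays, all 3 below the filter. Csf1r, the macrophage growth factor receptor gene, did not pass in its brightest probe set (-0.11 ± 0.29), but its other 2 tested probe sets were higher in KO cells by 1.77 and 1.53 (limma, adjusted p = 0.0153 and 0.017). The tryptase gene Tpsb2 was split likewise, at -0.19 in the brighter and 2.30 in the dimmer probe set. Conversely, Ccr2 and the mast cell marker Ms4a2 counted as higher by their brightest probe sets (3.24 and 2.47). The other tested probe sets of Ccr2, at 0.79 and 0.52, and that of Ms4a2, at 1.61, were not called. Of 13 T cell genes, all tested, 7 rose (3 without the intensity trend) and 1, Cd5, fell, with a median log2 difference of 0.35. Cd8a, a coreceptor gene of cytotoxic T cells, rose 3.43-fold (limma, adjusted p = 0.000465) and Cd3g, a chain of the T cell receptor complex, 2.39-fold (adjusted p = 5.29e-05), and the summed signal of the list was 109878 to 116377 on the KO arrays and 86993 to 89549 on the WT arrays. Of the 5 tested probe sets of Cd8a 4 were called, and the other was at 0.51. Zap70 counted as higher by its brightest probe set (0.63), but another was called lower (-1.67) and the last, at 0.23, was not called.

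The excess of KO array 1 over KO array 2 was seen among these markers too, to unequal degrees. Of the 12 mast cell and basophil markers that rose, all had more signal on KO array 1, by 0.02 to 1.27 on the log2 scale, with Tpsab1, a tryptase gene, at the low end and Cma1, a chymase gene, at the high end. The excess of Epx, 1.90, lay above that range and those of Prg2 and Prg3, 1.23 and 1.20, near its upper end. Among the 6 neutrophil markers that rose the difference ran from -0.40 for Cxcr2 to 2.50 for S100a9, which had 418 and 60.6 on KO arrays 1 and 2. Over the tested T cell genes the median was 0.0. Prg2, Prg3 and Epx were also chosen on this difference, so their place beside these ranges is a description. These are single arrays, and the differences between lists were not tested.

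**Figure D4:**
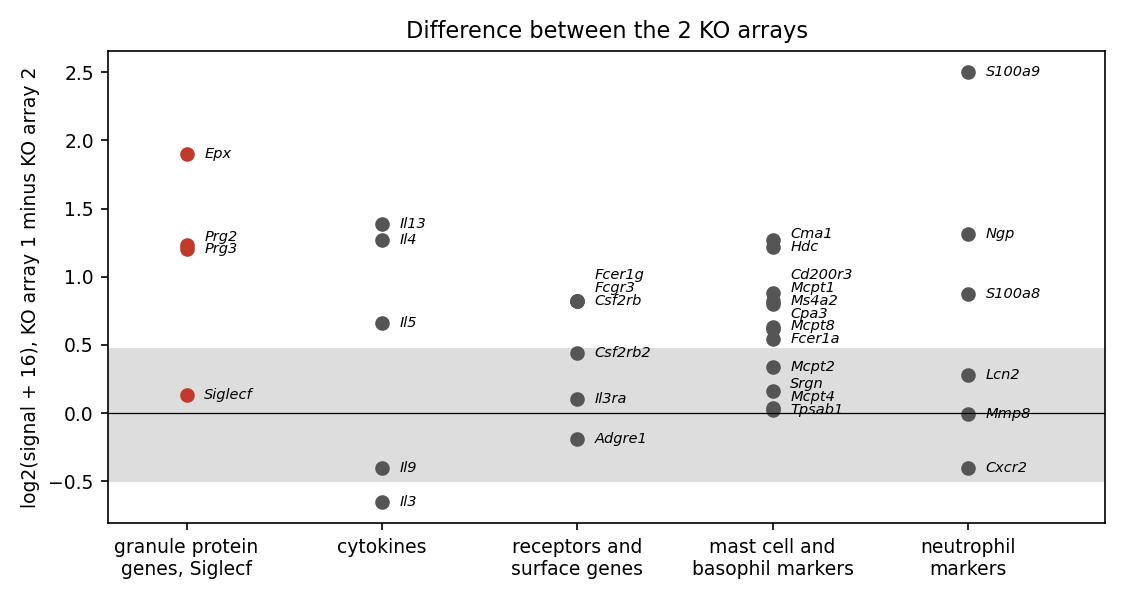
KO array 1 minus KO array 2 on the log2(signal + 16) scale for the 4 measured genes (red) and for the genes of 4 lists that rose in KO cells (grey); the shaded band is the median ± SD of all tested probe sets. Epx at 1.90, Prg2 at 1.23 and Prg3 at 1.20 lie above the band, and Siglecf at 0.13 inside it. Prg3 and Siglecf did not pass the filter, so the band does not cover probe sets as dim as theirs.

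The gene profiles most like those of Prg2 and Epx were sought over the 4 arrays among 12545 other tested genes, as the Euclidean distance between log2(signal + 16) profiles centred on their means. Since Prg2 and Epx were chosen for this pattern, the distances are a description. Nearest to Prg2 were the mast cell protease genes Mcpt1 (distance 0.62) and Cpa3 (0.97), then Timp1, an inhibitor of metalloproteinases (1.09), and the cytokine gene Il10 (1.24). Timp1 and Il10 did not share the excess of KO array 1, with 6274 and 7018 and with 4861 and 4926 on KO arrays 1 and 2. Nearest to Epx were Gzmk, a granzyme gene (0.33), Chil3, which encodes the chitinase-like protein Ym1 (0.58), Hdc, the histamine-forming enzyme (0.76), and the immunoglobulin gene Igkv9-120 (0.81). Gzmk had 3546 and 1085 on KO arrays 1 and 2, against 44.0 and 116 on WT arrays 1 and 2, and Chil3 had 903 and 229 on the KO arrays, against 9.63 and 24.8 on the WT arrays. Like Epx, both had more signal on KO array 1 than on KO array 2 and more on WT array 2 than on WT array 1. A shared order is what picking by distance over these same 4 arrays favours, and the WT signals of Epx and Chil3 were dim. Prg2 and Epx themselves were 2.45 apart, farther than any of these genes from its partner.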

How the data were processed

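RNA of KO and WT T cells was measured on 4 single-colour Affymetrix arrays. The authors deposited 1 linear intensity per probe set and array, computed with MAS5 per the submitters' processing notes (its settings are not given in the sources used here). After 2% of the probe sets at each end were left out, their mean was 500.0 on every array, while array medians lay between 56.5 and 62.6, so they were scaled but not quantile normalized. Such scaling removes differences in total RNA per cell, and dim MAS5 signals vary strongly between arrays. The number of arrays limits the precision.

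Gene names came from the platform annotation, in which 34958 of 45101 probe sets name 1 gene, 932 several and 9211 none. Of the named ones 34754 matched the RefSeq table of GRCm38.p6 by gene identifier, which changed 0 symbols. Without the 64 controls, and dropping the dimmest 40% by mean log2(signal + 16), 27022 probe sets (12547 genes) were tested for KO minus WT. The test was limma 3.58.1 in R 4.3.3, moderated with a trend on intensity (2 residual and 6.41 prior degrees of freedom), with two-sided p-values adjusted after Benjamini-Hochberg and called below 0.05. The fit was also run on simulated arrays drawn independently around its own estimates, so that run cannot check its assumptions about the spread. A fold change on this scale understates changes of dim genes. For a single value, the smallest two-sided p of an exact permutation test on 2 against 2 arrays is 0.333.

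Lists used 1 probe set per gene, the one with the highest mean. Of 23 list genes with several tested probe sets, 8 had calls that differed between them. The 5 genes, the lists and the tests were chosen with earlier results of these data known. The lists covered Ear family and related RNases, heme peroxidases, Siglec relatives, eosinophil receptors, lineage factors, enzymes, cytokines and chemokines, and markers of mast cells and basophils, neutrophils, macrophages and T cells. Of the peroxidase list 2 genes were measured and 0 passed the filter, and of 7 measured Siglec relatives 2 were tested and 0 called. The text names the 5 genes, the eosinophil lists, up to 4 genes per other list, taken by p, and the 4 nearest profiles. Neighbouring genes, and other list genes such as Kit, Tpsab1, Cma1, S100a9, Elane, Csf1r, Tpsb2 and Cd3d, were named after their values were seen. The alternatives were another added value, filter or scaling, no trend, the replicate number as a block, no cross-hybridising probe sets, and leaving out each array.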

Additional observations from a re-analysis of the deposited data

How the results depend on the processing

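With 2 arrays per group, every call depends on how the spread is modelled. A fit with no trend on intensity called 727 probe sets as higher and 456 as lower in KO cells, against 2131 and 2477 as reported, and the calls fell to 3 of 6 among the receptors that rose, 2 of 4 among the factors that rose, 2 of 3 among those that fell, and 1 of 5 among the cytokines. With no filter 3 cytokines were called. Leaving out 1 array gave 1542 to 1824 probe sets higher and 1033 to 2660 lower, 2 to 5 cytokines, 5 to 6 receptors higher, 2 to 4 factors lower and 9 to 13 mast cell markers. The number of factors higher stayed at 4 and that of receptors lower at 1. With 1 or 64 added, the KO minus WT log2 difference was 9.01 or 5.16 for Prg2, 3.52 or 1.11 for Prg3 and 2.33 or 0.34 for Siglecf, and with 64 it was 3.42 for Epx. Without 1 array it was 6.25 to 7.48 for Prg2, 1.57 to 2.77 for Prg3, 3.51 to 5.41 for Epx and 0.18 to 1.58 for Siglecf. With 64 added the fold also moved by over 1.5 times for called genes, among them the following. The log2 difference was then 2.86 for Csf2rb2, 3.68 for Fcer1g, 2.0 for Il4, 1.86 for Alox5 and 4.18 for Ctsg. It was 4.94 for Cpa3, 4.37 for Fcer1a, 3.41 for Ngp and 3.37 for S100a8. For other genes among the nearest profiles it was 6.56 for Mcpt1, 5.7 for Timp1 and 5.31 for Il10. Those near Epx were at 3.87 for Gzmk, 2.72 for Chil3, 3.45 for Hdc and 3.19 for Igkv9-120. Quantile normalization or centring moved none of the 4 eosinophil genes by more than 0.04. The KO array difference kept its direction for all 4 genes with another added value or scaling. It ranged from 0.81 (64 added) to 1.41 (1 added) for Prg3. The cause of these shifts was not tested.

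The arrays carry numbers 1 and 2 in both groups, but deviations of same-numbered arrays from their group means correlated at 0.01 across probe sets, so the numbers were not taken as pairs. With the replicate block 2412 probe sets were higher and 2970 lower. Genes that were not called changed sign in a few settings: Cd9 was at 0.00 with quantile normalization, 0.02 with median centring, 0.17 without KO array 2 and 0.14 without WT array 2, Rnase4 ranged from -0.21 (without WT array 2) to 0.40 (without WT array 1), Xbp1 was at -0.02 with quantile normalization and Ccl8 ranged from -1.33 (without KO array 1) to 0.31 (without KO array 2). The mean over all probe sets of a gene gave no other value, because each of the 4 genes has 1 probe set.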
